A study of Homo sapiens with 3 samples.

Results

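The chaperone genes of OCI-Ly10 cells were examined in 3 RNA sequencing libraries made after 6 h of MZ1. OCI-Ly10 is an established human line of diffuse large B cell lymphoma, and MZ1 is a compound that brings BET bromodomain proteins to the VHL ubiquitin ligase for degradation. All 3 libraries belong to 1 treated group. Untreated cells were not analysed here, so the values are levels, ratios between genes and differences between libraries, and an effect of MZ1 could not be measured. Separate cultures are not named in the labels, so differences between these libraries may be technical. Members were the protein-coding genes whose symbols start with DNAJA, DNAJB, DNAJC, HSPA, HSPB, HSPD, HSPE, HSPH, HSP90 or CCT2 to CCT8, plus TCP1 and HSF1. Of the 15808 genes in the count table, 72 were members, and 17 further annotated genes under these symbols were not analysed here, among them the stress-inducible HSP70 gene HSPA1A and the small heat shock protein genes HSPB2, HSPB3, HSPB6, HSPB7, HSPB8 and HSPB9. Of the 72, HSPB11, HSPBP1 and HSPBAP1 come in by symbol only and belong to no chaperone family named below.

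HSP70 proteins, encoded by HSPA genes, bind unfolded polypeptides in a cycle of ATP hydrolysis that J-domain proteins, encoded by DNAJ genes, start and that nucleotide exchange factors such as the HSP110 proteins reset. HSP90 proteins act later on kinases, receptors and other clients, and the barrel-shaped chaperonins, CCT in the cytosol and HSP60 with HSP10 in mitochondria, enclose proteins such as actin and tubulin or imported matrix proteins. HSF1 is the transcription factor that binds heat shock elements in the promoters of many of these genes, and cancer cells are known to rely on chaperones, HSP90 above all, to fold oncogenic clients.

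Replicate 1 stood apart from the other libraries. Column totals were 5474462 counts in replicate 1, 1441246 in replicate 2 and 1314812 in replicate 3, so that 1 count is worth 0.20, 0.629 and 0.767 CPM (counts relative to the scaled library size). Genes annotated as antisense took 0.251% of the counts in replicate 1, 2.04% in replicate 2 and 2.09% in replicate 3. Between replicates 2 and 3 Pearson's r of log2(CPM + 0.5) over the 63 members that averaged 10 counts or more was 0.959, against 0.919 between replicates 1 and 2 and 0.921 between replicates 1 and 3. Genes of high GC content were lower in replicate 2 than in replicate 1, with a median log2 difference of -1.49 in the GC-richest of 8 bins of tested genes and 0.32 in the GC-poorest. The 7 B cell markers given here (MS4A1, CD79A, CD79B, CD22, PAX5, EBF1 and CD74) all reached 1 CPM in every library, with summed levels of 5992, 1924 and 3977.5 CPM in replicates 1, 2 and 3. CD74 made up most of the sum in replicates 1 and 3 (4439, 815 and 2085 CPM), and the markers did not share one order, with CD79A at 437, 353 and 903 CPM and EBF1 at 21.2, 34.6 and 28.4 CPM. Of 4 T cell markers only CD2 was in the table, at 7, 0 and 0 counts. Myeloid markers in the table (LYZ, CSF1R and ITGAM) summed to between 23.8 and 31.0 CPM, and KRT8 and COL1A1, the epithelial and stromal markers in the table, to between 19.5 and 50.6 CPM. The part of GC content, depth and other cells in the differences below was not tested, apart from the values given beside them. Exons of 28 of the 72 members overlap exons on the opposite strand. The sources used here do not give the strand setting, so reads in these stretches may belong to either gene. This touches HSP90AA1 (197 bases), HSP90B1 (121), CCT4 (81), CCT6B (180), HSPA4L (536), HSPA14 (36), DNAJA4 (369), DNAJB1 (211), DNAJB9 (183) and DNAJB11 (381). It also touches DNAJC2 (628), DNAJC4 (93), DNAJC7 (401), DNAJC11 (1419), DNAJC16 (82), DNAJC19 (13), DNAJC27 (201) and DNAJC30 (359). BUD23, the partner of DNAJC30, had 254, 173 and 180 CPM in replicates 1, 2 and 3, above DNAJC30 in each library. Overlaps of the other members are named beside their values.

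Of the 72 members, 64 reached 1 CPM in each library (88.9%), against 78.0% of the 12460 protein-coding genes and 68.0% of all genes in the table. Together the members took 2.05% of the counts in replicate 1, 3.01% in replicate 2 and 2.86% in replicate 3, with exact 95% intervals of 2.04 to 2.07%, 2.98 to 3.03% and 2.83 to 2.89%. The 3 HSP90 genes alone took 0.962%, 1.80% and 1.48%. Such intervals, here and below, cover counting error alone, since PCR copies of a molecule count as separate reads where no molecular identifier marks them. A few very abundant transcripts thus stood beside many of low level.

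Heat shock elements were searched in the promoter windows that RefSeq places on GRCh38.p14 (250 bases before to 50 after each start site, 87 windows for 65 of the 72 members), because HSF1 acts through them on many of these genes. The element searched was the trimer, in which GAA and TTC units alternate 3 times with 2 bases between units (GAANNTTC followed by NNGAA, or TTCNNGAA followed by NNTTC, which is the same element on the other strand). It was present in 7 of 87 windows of members (8.05%), against 172 of all 35116 windows (0.49%). These windows belong to 27305 genes and are not limited to genes of the count table. The 7 genes were HSP90AA1, HSP90AB1, HSPA8, HSPA6, DNAJA1, DNAJB6 and HSPD1. The shorter dimer, GAANNTTC or TTCNNGAA, which every trimer also holds, was present in 26.4% of windows of members and 13.5% of all windows, and in 0 of 13 windows of members of the endoplasmic reticulum (ER). The ER stress element, CCAAT and CCACG with 9 bases of any kind between them, searched on both strands, was present for HSPA5 and HSP90B1 (2 of 13 windows of ER members) and in 0.0769% of all windows. Matches are descriptions of these letters and not evidence of binding. The stretches that hold the matches are shown for the 7 carriers of the trimer and then for the 2 of the ER stress element, with the matches in capitals and each sequence written in the direction of its gene.
HSP90AB1: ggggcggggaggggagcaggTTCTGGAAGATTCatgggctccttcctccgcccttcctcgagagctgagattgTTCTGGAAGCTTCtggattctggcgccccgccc
HSP90AA1: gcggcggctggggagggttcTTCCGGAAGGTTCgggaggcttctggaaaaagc
HSPA8: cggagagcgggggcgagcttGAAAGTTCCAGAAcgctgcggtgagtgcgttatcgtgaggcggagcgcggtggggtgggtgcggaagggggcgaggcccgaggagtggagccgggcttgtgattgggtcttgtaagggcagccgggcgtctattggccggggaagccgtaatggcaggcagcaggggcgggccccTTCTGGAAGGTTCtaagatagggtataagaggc
HSPD1: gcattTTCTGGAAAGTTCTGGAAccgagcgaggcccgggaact
DNAJA1: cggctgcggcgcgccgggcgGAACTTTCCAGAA
DNAJB6: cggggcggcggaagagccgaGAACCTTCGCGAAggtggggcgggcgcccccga
HSPA6: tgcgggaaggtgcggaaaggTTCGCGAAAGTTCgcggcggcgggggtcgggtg
HSPA5: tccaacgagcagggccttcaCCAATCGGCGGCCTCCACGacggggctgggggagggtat
HSP90B1: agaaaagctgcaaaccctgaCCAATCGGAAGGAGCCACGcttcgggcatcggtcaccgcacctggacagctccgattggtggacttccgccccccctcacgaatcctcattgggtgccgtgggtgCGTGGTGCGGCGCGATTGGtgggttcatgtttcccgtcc
The HSP90AB1 stretch lies at chr6:44247758-44247863 on the plus strand and the HSP90AA1 stretch at chr14:102087100-102087152 on the minus strand. For HSPA8 the stretch is chr11:123062159-123062386 (minus), for DNAJB6 chr7:157336853-157336905 (plus), for DNAJA1 chr9:33025256-33025288 (plus), for HSPD1 chr2:197500048-197500090 (minus) and for HSPA6 chr1:161524446-161524498 (plus). The 2 ER stress element stretches are chr9:125241371-125241429 (minus) for HSPA5 and chr12:103930196-103930359 (plus) for HSP90B1. The first match began 165 bases before the start site in HSP90AB1 and 88 before it in HSP90AA1 (-165 and -88), while in DNAJA1 it began 3 bases after the start site. HSPA8 and HSP90AB1 each hold 2 separate matches and HSPD1 holds 2 overlapping ones. HSPD1 has 2 start sites among these windows, and the match belongs to the window of the downstream one, 434 bases from the upstream site.

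HSP90 genes were the most abundant chaperone transcripts. The constitutive cytosolic gene HSP90AB1 (ENSG00000096384.18, chromosome 6, 44246166 to 44253888, plus strand) had 5552, 8504 and 5308 CPM in replicates 1, 2 and 3. Its inducible cytosolic paralogue HSP90AA1 (ENSG00000080824.17, chromosome 14, 102080738 to 102139699, minus strand) had 2229, 4486 and 4777 CPM. HSP90B1, which encodes GRP94 of the ER lumen (ENSG00000166598.11, chromosome 12, 103930107 to 103953645, plus strand), had 2748, 3336 and 4857 CPM. Each gene had a pattern of its own: HSP90AB1 was highest in replicate 2, HSP90AA1 was low in replicate 1 alone, and HSP90B1 was highest in replicate 3. Levels of different genes are compared below only per kb of merged exons, and on that scale HSP90AB1, HSP90B1 and HSP90AA1 ranked above all other members, at 2166 ± 597, 777 ± 232 and 729.9 ± 266 CPM per kb (SD, n = 3). HSP90AB1 lay above HSP90AA1 in 3 of 3 libraries, by log2 ratios per kb of 2.13, 1.74 and 0.97 in replicates 1, 2 and 3. The mean was 1.61 ± 0.59, a 3.06-fold difference. HSP90B1 lay below HSP90AB1 in 3 of 3 libraries, by -1.49 ± 0.63 on the same scale.

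**Figure D1:**
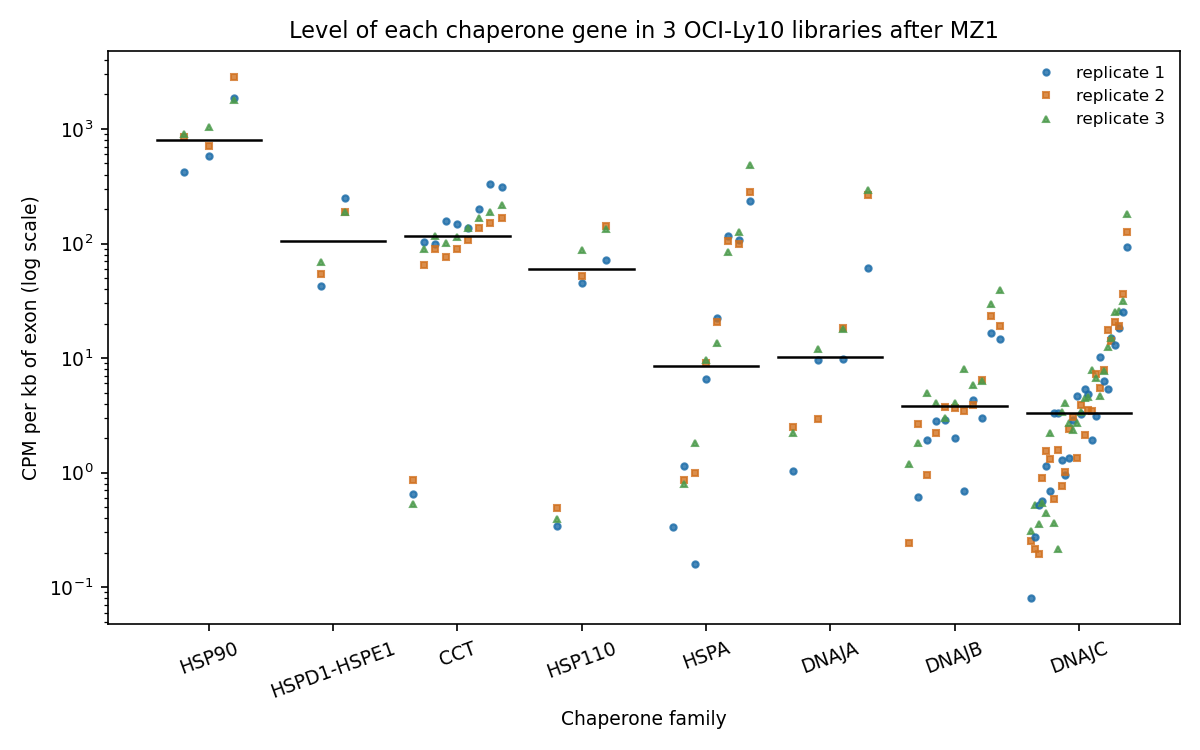
CPM per kb of merged exons (log scale) of every member of 8 chaperone families in replicates 1, 2 and 3, each gene being a column of up to 3 points; genes at 0 in a library are not drawn there, and the bar is the family median, averaged on the log2 scale over the 3 libraries. HSP90 genes sit highest, the CCT subunits lie close together apart from CCT6B, and HSPA genes span from about the HSP90 range down to 0.

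In the HSP70 family, a few housekeeping genes were abundant, and the stress-inducible genes HSPA6 and HSPA1B had few reads. HSPA8, the constitutive cytosolic HSC70 (ENSG00000109971.12, chromosome 11, 123057489 to 123063230, minus strand), had 1129, 1374 and 2353 CPM in replicates 1, 2 and 3. HSPA9, the mitochondrial HSP70 mortalin, had 887, 820.2 and 1033 CPM, and HSPA5, the ER HSP70 BiP, had 455, 412 and 331 CPM. HSPA8 was highest in replicate 3 and HSPA5 lowest there, while HSPA9 moved little. Per kb, HSPA8 averaged 334 ± 134 CPM per kb, HSPA9 111 ± 13.2 and HSPA5 102 ± 16.1 (SD, n = 3). The log2 ratio of HSPA8 to HSPA5 was 1.65 ± 0.78 and that of HSPA8 to HSPA9 1.53 ± 0.42, with HSPA8 above in 3 of 3 libraries each time. On this scale HSPA9 and HSPA5 did not differ beyond their SD. With the length of the longest transcript the ratios were 2.62 to HSPA5 and 1.70 to HSPA9. The closeness of HSPA9 and HSPA5 thus depends on the length used.

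Stress-inducible and tissue-restricted HSP70 genes had few or no reads. HSPA6, which is silent without strong stress and whose promoter holds the trimer printed above, had 4, 0 and 0 counts in replicates 1, 2 and 3, with an exact 95% interval of 0.218 to 2.05 CPM in replicate 1. HSPA1B (chromosome 6, 31827735 to 31830255, plus strand) had 2, 4 and 6 counts, or 0.40, 2.51 and 4.60 CPM, with exact intervals of 0.0484 to 1.44, 0.685 to 6.44 and 1.69 to 10.0 CPM. HSPA1B has a near-identical copy, HSPA1A, and the handling of reads that map to both is unknown here, so its level is uncertain. For HSPA1L, a testis gene, 0 counts were found, with exact 95% intervals that reach up to 0.738, 2.32 and 2.83 CPM in replicates 1, 2 and 3. HSPA2, also enriched in testis, had 5.41 ± 1.05 CPM. At intermediate levels stood HSPA14, a ribosome-associated HSP70, at 59.6, 54.7 and 36.1 CPM, and HSPA13, a microsomal HSP70-like protein, at 27.8, 37.7 and 40.7 CPM.

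The HSP110 genes encode large HSP70 relatives that act as nucleotide exchange factors. HSPA4 had 370.5 CPM in replicate 1, against 728 in replicate 2 and 693 in replicate 3, and HSPH1, the heat-inducible member, had 380.1, 439 and 736 CPM. Both were lowest in replicate 1, HSPA4 with replicates 2 and 3 close together and HSPH1 with replicate 3 apart. HSPH1 lay below HSPA4 by a log2 ratio per kb of -0.91 ± 0.46, in 3 of 3 libraries. HSPA4L had 4.75 ± 0.84 CPM, from 20, 9 and 6 counts.

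CCT subunits are needed in equal numbers, since the chaperonin is built of rings in which each of 8 different subunits sits once. All 8 were abundant: their levels per kb lay between 99.0 and 332 CPM in replicate 1, between 65.6 and 167 in replicate 2, and between 89.9 and 215 in replicate 3, a range of 3.35-fold, 2.55-fold and 2.40-fold. CCT4 was the highest on average at 231 ± 72.9 CPM per kb, followed by CCT8 at 223 ± 96.2 and CCT7 at 168 ± 32.6 (SD, n = 3). TCP1, the alpha subunit, had 127 ± 16.2, CCT2 117 ± 29.3, CCT3 112 ± 41.9, CCT5 102 ± 14.2 and CCT6A 86.1 ± 18.9 CPM per kb. Most neighbours in this order were closer than their SD, and CCT8 lay above CCT7 and CCT7 above TCP1 in 3 of 3 libraries. The merged exons of CCT4, CCT8 and CCT7 measure 2.83, 3.34 and 3.59 kb, but their longest transcripts 2520, 2005 and 2031 bases. On the latter lengths CCT8 and CCT7 averaged above CCT4, so the order depends on the length used. CCT6B, the testis form of the zeta subunit, had 14, 6 and 3 counts, with exact 95% intervals of 1.53 to 4.70, 1.38 to 8.21 and 0.475 to 6.73 CPM, and CCT6A lay above it by a log2 ratio per kb of 6.75 ± 0.60 in 3 of 3 libraries.

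**Figure D2:**
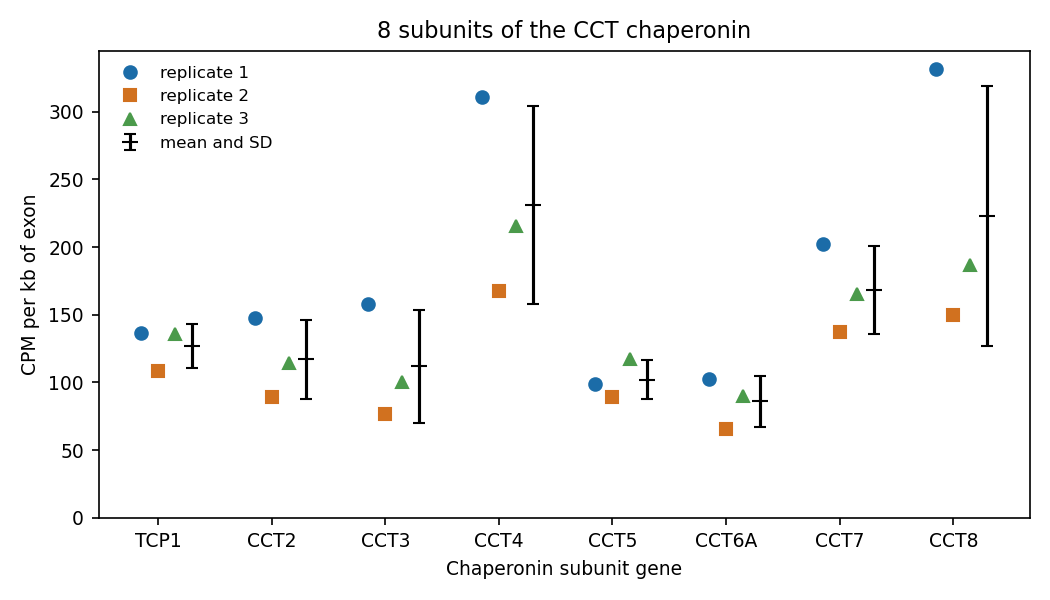
CPM per kb of merged exons of the 8 subunit genes of the CCT chaperonin in replicates 1, 2 and 3, with the mean and SD (n = 3) beside them. Replicate 2 is the lowest point for every subunit and replicate 1 the highest for every subunit except CCT5.

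The CCT genes also moved together between libraries. CCT8 had 1108, 500.3 and 624 CPM in replicates 1, 2 and 3, CCT4 had 879, 473 and 609.9, and CCT3 had 636, 309 and 403 CPM. CCT2 had 638, 385 and 495, CCT7 726, 492 and 594, CCT6A 401, 256 and 351, TCP1 674, 534 and 669 and CCT5 578, 523 and 686 CPM. For every subunit replicate 2 was the lowest library, and replicate 1 was the highest for all but CCT5. The difference of replicate 3 minus replicate 2 was between 0.27 (CCT7) and 0.45 (CCT6A) on the log2 scale. Its SD between the 8 genes was 0.055, beside 0.671 over the 831 genes of the table that averaged 500 counts or more. Its median was 0.36 for the 8 genes and 0.20 for the 831 genes, so abundant genes as a set were also higher in replicate 3 than in replicate 2. Against replicate 1 the subunits were less uniform, with an SD between genes of 0.341 for replicate 2 and 0.348 for replicate 3, beside 1.25 and 0.975 over the 831 genes. The exons of CCT5 overlap 1757 bases of the opposite-strand gene AC012640.4, which had 0.60, 41.5 and 66.7 CPM in replicates 1, 2 and 3, and those of TCP1 overlap 397 bases of ACAT2. The part of these overlaps in the values of CCT5 and TCP1 was not tested.

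HSPD1 and HSPE1 encode HSP60 and its lid HSP10 of the mitochondrial matrix. On chromosome 2 the annotated span of HSPD1 (ENSG00000144381.15, 197486581 to 197516737, minus strand) contains that of HSPE1 (ENSG00000115541.9, 197499994 to 197503457, plus strand). By the upstream RefSeq start site of HSPD1, at 197500274, and that of HSPE1, at 197500379, the genes lie head to head. HSPD1 had 1061, 796 and 805 CPM in replicates 1, 2 and 3 and HSPE1 had 84.0, 107 and 135 CPM. HSPD1 was highest in replicate 1 and HSPE1 lowest there. The log2 ratio per kb of HSPD1 to HSPE1 was 2.55, 1.79 and 1.47 in replicates 1, 2 and 3, with a mean of 1.94 ± 0.55. The exons of HSPD1 and HSPE1 overlap by 281 bases on opposite strands, and without a known strand setting reads there cannot be assigned to one gene.

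J-domain proteins formed the largest group, with 41 genes in the table, of which 36 reached 1 CPM in all 3 libraries. The farnesylated cytosolic protein gene DNAJA1 (ENSG00000086061.14, chromosome 9, 33025211 to 33039907, plus strand) was the highest per kb, at 206 ± 127 CPM per kb, and it had 167 CPM in replicate 1, against 719.6 in replicate 2 and 805 in replicate 3. Replicate 1 thus lay far below the other libraries, with log2 differences of 2.11 for replicate 2 minus 1 and 2.27 for replicate 3 minus 1. DNAJA2, a partner of HSC70, had 50.2, 93.0 and 91.3 CPM, and DNAJA4 6.80, 16.3 and 14.6 CPM, again lowest in replicate 1. DNAJA3, the mitochondrial form, had 67.6, 20.7 and 84.4 CPM and was low in replicate 2 alone. The log2 ratio per kb of DNAJA1 to DNAJA2 was 3.49 ± 0.77 and that of DNAJA1 to the heat-inducible HSP40 gene DNAJB1 2.91 ± 0.88, with DNAJA1 above in 3 of 3 libraries each time.

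Among the DNAJB genes, DNAJB1 had 54.4, 69.8 and 143 CPM in replicates 1, 2 and 3, and was highest in replicate 3. DNAJB11, the ER protein ERdj3, had 95.8, 133 and 169 CPM. DNAJB6, which suppresses aggregation and whose promoter holds the trimer, had 64.2, 57.8 and 87.5 CPM. Per kb these ranked at 24.3 ± 13.0, 23.1 ± 6.37 and 4.66 ± 1.04 CPM per kb, and DNAJB4, a cytosolic HSP40, stood between at 5.26 ± 1.95. The lowest was the testis gene DNAJB7 with 0, 1 and 4 counts, and its exons overlap 625 bases of XPNPEP3 on the opposite strand. DNAJB13, a protein of motile cilia, had 2.40, 11.9 and 27.6 CPM, and AP003717.1, which overlaps 799 bases of its exons on the opposite strand, had 12.8, 20.7 and 26.1 CPM. DNAJB2, with ubiquitin-interacting motifs, had 11.4, 5.66 and 29.2 CPM and DNAJB5 3.60, 15.7 and 10.7 CPM.

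The DNAJC genes, which share only the J domain and serve the widest set of tasks, ranged from 134 to 0.214 in mean CPM per kb. The splicing-associated nuclear gene DNAJC8 was by far the highest, at 272, 363 and 527 CPM and 134 ± 44.8 CPM per kb. It was followed by DNAJC11, a mitochondrial membrane protein, at 31.0 ± 5.66 and by DNAJC7, a TPR protein that links HSP70 and HSP90, at 21.0 ± 4.19 CPM per kb. DNAJC2, a ribosome-associated factor, had 86.2, 136 and 166 CPM, and DNAJC9, a co-chaperone of histones H3 and H4, had 59.8, 55.3 and 59.1 CPM. Its libraries did not differ detectably at this depth (chi-square test with Benjamini-Hochberg adjustment over all genes, adjusted p = 0.838), and its exons overlap 949 bases of FAM149B1 on the opposite strand. DNAJC21 of ribosome biogenesis had 30.0, 69.1 and 64.4 CPM, and DNAJC25 13.8, 45.9 and 32.2 CPM, both lowest in replicate 1. DNAJC14 had 8.0, 14.5 and 33.0 CPM and DNAJC17, a nuclear splicing protein, 5.40, 5.66 and 23.0 CPM, and exons of both overlap genes on the opposite strand. The lowest was DNAJC28, with 1 count in each library.

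Membrane and vesicle members of the DNAJC group, given here with DNAJC24, DNAJC4 and DNAJC27 of other or no assignment, ranged from moderate levels to near 0. DNAJC5, the cysteine string protein of secretory vesicles, had 28.4, 11.3 and 23.8 CPM in replicates 1, 2 and 3, and was lowest in replicate 2. DNAJC13, which acts with clathrin and retromer on endosomes, had 31.4, 37.1 and 32.2 CPM, and its libraries did not differ detectably (adjusted p = 0.594 by the same chi-square test). DNAJC6, the neuronal auxilin that helps uncoat clathrin vesicles, had 40, 17 and 4 counts, and DNAJC5B, a testis form of the cysteine string protein, had 4, 1 and 2 counts. DNAJC24, a factor of diphthamide synthesis on elongation factor 2, had 5.20, 10.1 and 16.9 CPM and was lowest in replicate 1. DNAJC4 had 13.0, 3.77 and 7.67 CPM and was highest in replicate 1, and DNAJC27 had 16, 8 and 4 counts.

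HSPB1 and HSF1 were among the most uneven members. HSPB1, which encodes HSP27 (ENSG00000106211.8, chromosome 7, 76302544 to 76304295, plus strand), was the only canonical small heat shock protein gene in the table, and had 38.8, 1.89 and 6.14 CPM in replicates 1, 2 and 3, from 194, 3 and 8 counts. HSF1 (ENSG00000185122.9, chromosome 8, 144291591 to 144314722, plus strand) had 45.8, 6.91 and 42.2 CPM, from 229, 11 and 55 counts. HSPB1 was high in replicate 1 alone, and HSF1 was low in replicate 2 alone. These transcripts had a GC content of 64.3% (HSPB1) and 64.7% (HSF1), above the 61.7% median of the GC-richest bin. Centred on the tested genes of the same GC bin, the mean difference of replicates 2 and 3 from replicate 1 was -2.39 for HSPB1, against -3.30 uncentred, and -0.46 for HSF1, against -1.38. These means join unlike libraries. Uncentred, HSF1 differed from replicate 1 by -2.64 in replicate 2 and -0.12 in replicate 3, and HSPB1 by -4.04 and -2.57. The medians of the GC-richest bin were -1.49 and -0.34. HSF1 exons also overlap 139 bases of DGAT1 on the opposite strand.

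**Figure D3:**
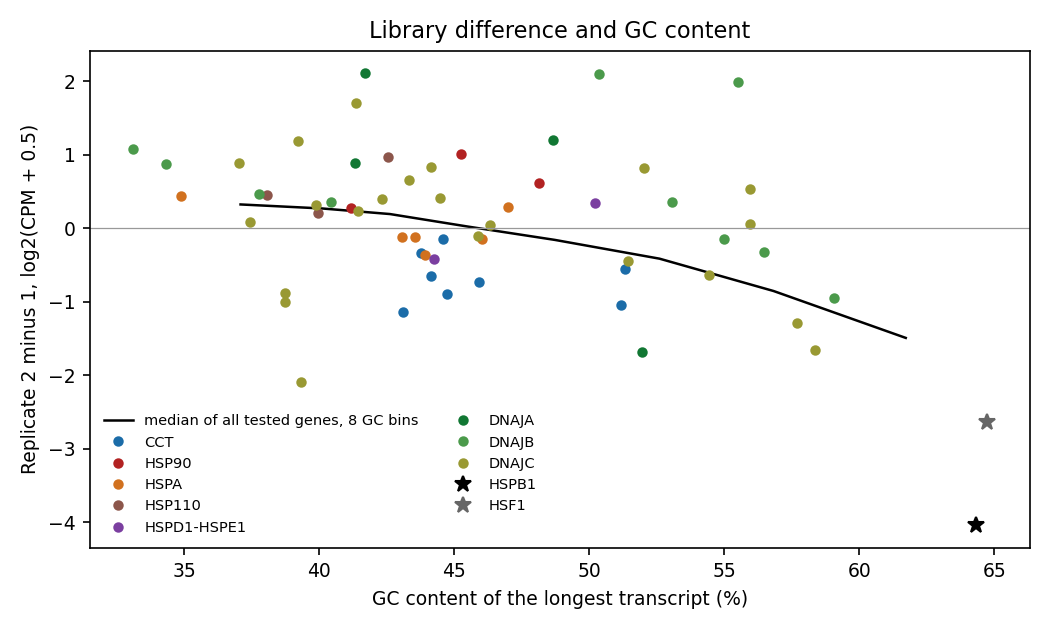
Difference of log2(CPM + 0.5) between replicate 2 and replicate 1 against the GC content of the longest transcript, for the tested members by family (points; the 3 members that come in by symbol only are left out) and for all tested genes as the median of 8 GC bins (line). HSPB1 and HSF1 (stars) lie at the GC-rich, low end, while the 8 CCT genes lie below the line at 43.1 to 51.3% GC.

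Families were compared by the median over their members of log2 CPM per kb, as mean ± SD over 3 libraries. The HSP90 genes had 9.65 ± 0.42 (803 CPM per kb), the CCT genes 6.86 ± 0.36 (116), the HSPD1 and HSPE1 pair 6.73 ± 0.09 (106) and the HSP110 genes 5.89 ± 0.50 (59.3 CPM per kb). DNAJA genes had 3.36 ± 0.50, HSPA genes 3.08 ± 0.29, DNAJB genes 1.92 ± 0.40 and DNAJC genes 1.72 ± 0.25, against 1.37 ± 0.13 for all protein-coding genes in the table. The CCT genes and the HSPD1 and HSPE1 pair did not differ beyond their SD, nor did DNAJA and HSPA genes or DNAJB and DNAJC genes. With 3 members in each of the HSP90 and HSP110 groups, these medians are those of single genes. The HSPA median was that of HSPA13 in each library, while HSPA8, HSPA9 and HSPA5 averaged 334, 111 and 102 CPM per kb. The closeness of DNAJA and HSPA genes depended on the settings. By longest transcript they had 4.25 and 3.15, and without members that overlap others on the opposite strand 3.90 and 1.80. Means in place of medians gave 3.75 for DNAJA and 2.76 for HSPA genes.

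By compartment, mitochondrial members and those of the cytosol and nucleus had similar medians and ER members a lower one. On the same scale the 8 mitochondrial members had 4.04 ± 0.22, the 40 of the cytosol and nucleus 3.93 ± 0.08, the 13 of the ER 1.93 ± 0.32 and the 6 of other membranes and vesicles 1.50 ± 0.49 (SD, n = 3). The last group includes DNAJB13, DNAJC5B and HSPB11, whose assignment is uncertain, and had 1.55 without them. DNAJC4, DNAJC25, DNAJC27, DNAJC28 and HSPBAP1 were assigned to no compartment. The ER median hides a wide range: HSP90B1 at 777 and HSPA5 at 102 CPM per kb stood above DNAJB11 at 23.1, HSPA13 at 8.44 and DNAJC3, the ER protein P58IPK, at 7.29 CPM per kb. DNAJC1 (ERdj1) had 4.33, DNAJC14 4.41, DNAJB14 3.25, DNAJB9 (ERdj4) 3.21, DNAJB12 3.03, the disulfide reductase DNAJC10 (ERdj5) 2.76, DNAJC16 2.15 and DNAJC18 0.357 CPM per kb. Both ER genes with the stress element printed above were thus the most abundant of the compartment. They differed in pattern, since HSP90B1 was lowest in replicate 1 and HSPA5 highest there. In mitochondria HSPD1, HSPA9 and HSPE1 led at 209, 111 and 54.9 CPM per kb, ahead of DNAJC11 at 31.0, DNAJA3 at 8.14, DNAJC15 at 6.75, DNAJC30 at 1.81 and DNAJC19, of the inner membrane import motor, at 1.69 CPM per kb.

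**Figure D4:**
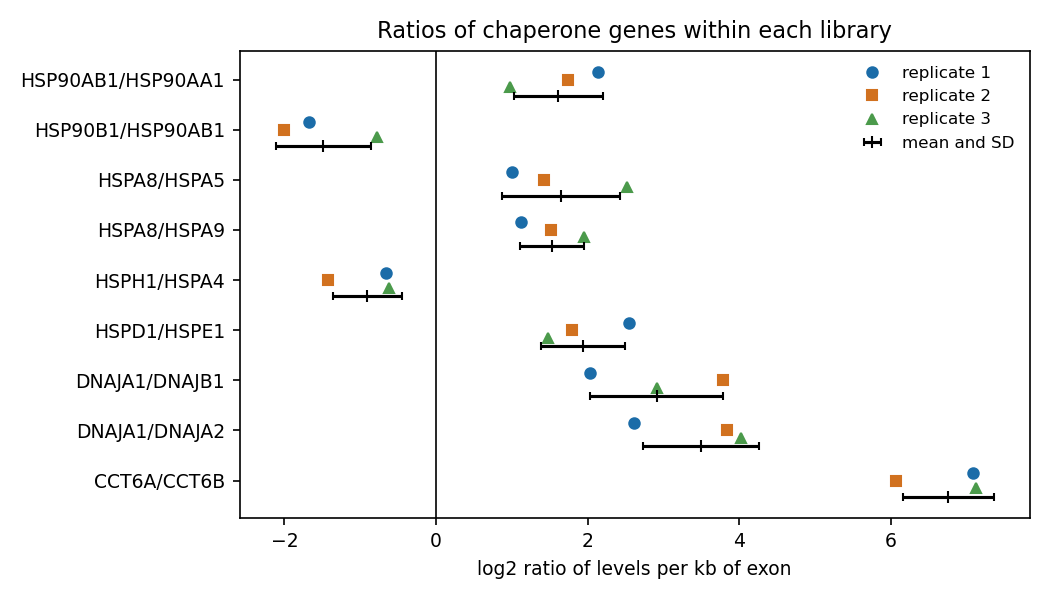
log2 ratio of the levels per kb of merged exons for 9 gene pairs within replicates 1, 2 and 3, with the mean and SD (n = 3); the gene named first is the numerator. Every pair keeps its sign in 3 of 3 libraries, and the ratio of DNAJA1 to DNAJA2 is 2.61 in replicate 1 against 3.84 and 4.02 in replicates 2 and 3.

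All 9 pairs kept 1 direction in 3 of 3 libraries. Flipping signs in a two-sided exact permutation test gave p = 0.25 for each pair, the smallest that 3 libraries allow, and 0.25 after Benjamini-Hochberg adjustment over the 9 pairs, so no pair could pass 0.05. Without replicate 1 the means kept their signs, for instance 1.35 for HSP90AB1 to HSP90AA1, 1.63 for HSPD1 to HSPE1 and 3.93 for DNAJA1 to DNAJA2.

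Differences between libraries were tested by a chi-square test in which equal expression predicts the 3 counts of a gene, adjusted over the 10016 genes that averaged 10 counts or more. It compares libraries and not conditions, and it sets their differences against counting error alone, taking every read as a separate molecule, so that spread from library preparation also counts as variation. Of 63 members tested, 52 varied (82.5%), against 67.2% of all genes tested. At a mean count of 50 or more the shares were 88.4% of members (38 of 43) and 81.1% of all genes, and at 500 or more 100% (19 of 19) and 95.8%. The gap was thus narrower among abundant genes. Without replicate 1, 28 of 56 members varied (50%), against 33.8% of all genes. By family, 8 of 8 CCT, 2 of 2 HSP110, 4 of 5 HSPA and 2 of 3 HSP90 genes then varied, as did HSF1, and 4 of 10 DNAJB, 6 of 18 DNAJC and 1 of 4 DNAJA genes and 0 of 2 in the HSPD1 and HSPE1 pair. The shares without replicate 1 were not matched for abundance, and the 8 CCT genes all averaged more than 500 counts over the 3 libraries.

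Calls were then split by the place of replicate 1. Of the 63 members, 27 varied with their lowest level in replicate 1 (42.9%, against 23.1% among all tested genes), and 18 with their highest level there (28.6%, against 32.1%). All 8 tested CCT genes varied, 7 of them highest in replicate 1 and 0 lowest. Among 36 tested J-domain genes 28 varied, 19 lowest in replicate 1 and 5 highest. The 6 tested members with the trimer printed above all varied, 3 of them lowest in replicate 1 (HSP90AA1, HSPA8 and DNAJA1), 1 highest (HSPD1) and 2 between (HSP90AB1 and DNAJB6). Of all tested genes 67.2% varied, and 95.8% of those that averaged 500 counts or more. The 8 CCT genes, the 3 HSP90 genes and all tested carriers of the trimer but DNAJB6 averaged that many. Among 12 tested ER members 7 varied, of which 6 were lowest in replicate 1 and HSPA5 was the 1 that was highest. All 3 HSP90 genes varied, with 2 lowest in replicate 1, and of the HSPA and HSP110 genes 7 of 9 varied, 4 lowest and 2 highest there. With libraries scaled by column totals, in which the median of all tested genes shifted by -0.13, 0.14 and -0.01 on the log2 scale in replicates 1, 2 and 3, 6 CCT genes were highest and 1 lowest in replicate 1. Of all varying genes that were highest or lowest in replicate 1, 54.3% were then lowest, against 41.8% with TMM scaling, and of such members 69.6%, against 60% with TMM scaling.

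**Figure D5:**
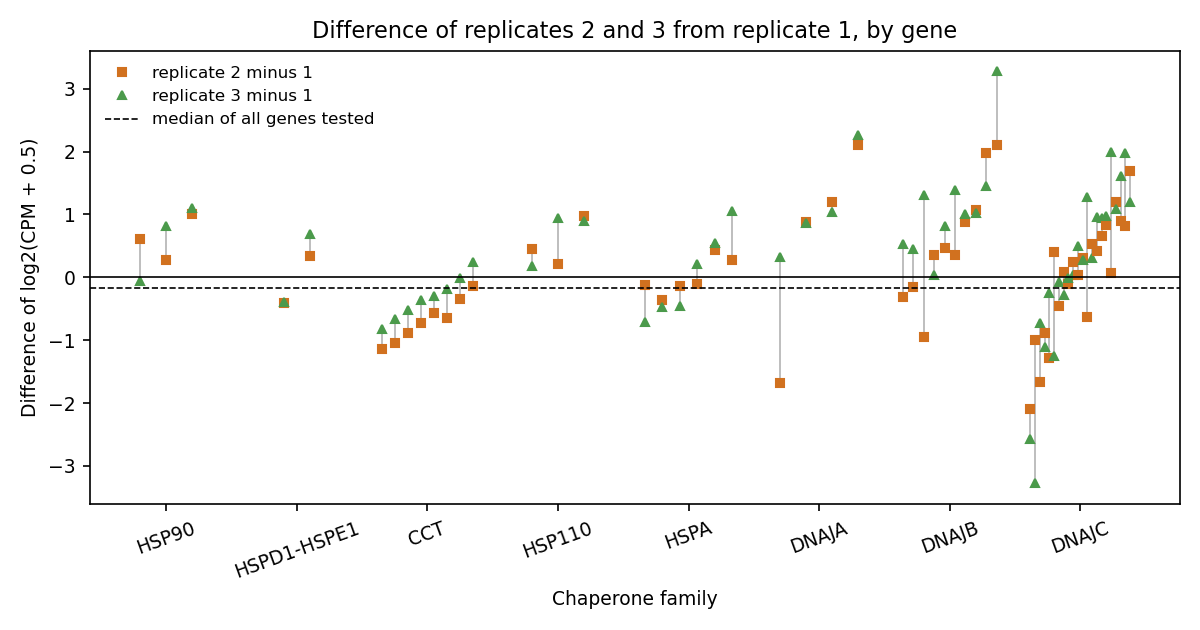
Difference of log2(CPM + 0.5) of replicate 2 minus 1 (squares) and replicate 3 minus 1 (triangles) for each tested member by family, joined by a grey line per gene; the solid line is 0 and the dashed line the median of all tested genes, at -0.17. CCT genes lie mostly below 0, and DNAJA and DNAJB genes mostly above it.

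Averaged over replicates 2 and 3, the median log2 difference from replicate 1 was -0.49 for the 8 tested CCT genes, against 1.00 for 4 DNAJA genes, 0.76 for 10 DNAJB genes, 0.58 for 3 HSP110 genes and 0.55 for 3 HSP90 genes. Column totals gave -0.29 for CCT genes, and the DNAJB value was 0.42 without replicate 3, the HSP110 value 0.90 without replicate 2 and the HSP90 value 0.28 without genes that overlap others on the opposite strand. With all libraries and genes the median was 0.28 for 22 DNAJC genes, but 0.16 without replicate 3, 0.47 with column totals and 0.021 without overlapping genes, and 0.05 for the HSPD1 and HSPE1 pair, which without replicate 3 gave -0.034. For 6 HSPA genes it was -0.12, but 0.072 with column totals and 0.053 without overlapping genes, and for all genes tested -0.17, but 0.019 with column totals. Centred on GC bins, the values were -0.43 for CCT and 0.42 for HSP90 genes. Across the 63 members, which are not independent, Spearman's rho of the difference with GC content was -0.399 when replicate 1 was subtracted from replicate 2 and -0.0284 when it was subtracted from replicate 3, beside -0.452 and -0.148 over 9979 genes. The members share libraries and depth.

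Partners of these chaperones were similarly widely expressed. Of 46 listed co-chaperones and related folding factors in the table, 43 had at least 1 CPM throughout (93.5%), and 35 of 43 tested varied (81.4%, against 67.2% of all genes), 14 highest (32.6%) and 13 lowest (30.2%) in replicate 1. Without replicate 1, 16 of 40 varied (40%), against 33.8% of all genes. At a mean count of 50 or more, 81.1% of all genes varied over the 3 libraries. The shares of co-chaperones were not matched for abundance. PTGES3, the p23 co-chaperone of HSP90, had 804, 1011 and 1006 CPM in replicates 1, 2 and 3, and STIP1, which links HSP70 to HSP90, had 265, 382 and 476 CPM. Both were lowest in replicate 1. The prefoldin gene PFDN5 had 629.8 ± 124 CPM, ST13, an HSP70-interacting protein, 356 ± 45.4 and NUDC 259.9 ± 88.1. The most uneven of at least 10 CPM were UNC45A, a myosin and HSP90 co-chaperone, at 57.4, 11.9 and 21.5, the ubiquitin ligase gene STUB1 at 38.4, 11.3 and 36.1 and the prefoldin gene PFDN4 at 36.8, 10.1 and 15.3 CPM. SERPINH1, the collagen chaperone HSP47, was the lowest at 1.47 ± 0.84 CPM.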

How the data were processed

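RNA of 3 libraries of 1 group was sequenced. The count table holds raw counts per gene as deposited by the authors, and the second table holds log2 CPM deposited by the authors, used only as an alternative. The submitters' processing notes name STAR, edgeR and the hg38 build; for versions, the counting tool, the strand setting and the annotation, nothing is given in the sources used here. Per the labels' protocols, libraries were made with a TruSeq RNA kit from Trizol RNA.

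Symbols, positions, merged exon lengths and GC content of the longest transcript came from GENCODE 29 (GRCh38), matched on unversioned IDs for 15668 genes; 140 unmatched IDs (0.0315% to 0.0972% of counts) stayed in the totals. Counts were scaled with TMM (edgeR 4.0.16, R 4.3.3), with factors of 0.914, 1.10 and 0.991. A pseudocount of 0.5 CPM was added before taking log2, so that differences of low genes are understated. Variation between libraries was tested with a chi-square test (scipy 1.17.1) and Benjamini-Hochberg adjustment at 0.05. On simulated counts for 10016 genes it recovered 66% of 2-fold and 94% of 4-fold changes placed in replicate 1, the deepest library. The simulated counts held counting error alone, so these rates do not cover spread from library preparation or changes in the shallower libraries. Promoters came from RefSeq (GRCh38.p14). Overlaps with genes of the other strand were found from exon coordinates.

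Members, lists, compartments (textbook knowledge) and gene pairs were chosen with earlier results of these data known. Named genes are all HSP90, CCT, HSPD1 and HSPE1 genes, HSF1, genes of the pairs, ER and mitochondrial members, the 3 highest and the lowest of each other family per kb, and the 10 whose log2 values had the largest SD at 10 CPM or more; other members named were picked with their values in view. The pair of HSPA1A with HSPA8 could not be computed, and HSPA1B is given by its counts. The ER stress element and the backgrounds at 50 and 500 counts were added after seeing the data. Of the co-chaperones, the 5 highest and the lowest by mean CPM (not per kb) and the 3 with the largest SD at 10 CPM or more are named. Alternatives were DESeq2 1.42.0 size factors, column totals with and without mitochondrial genes, other thresholds, pseudocounts and lengths, thinning to equal depth, GC-bin centring and leaving out each replicate. A listed cell type marker is not reported here.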

Additional observations from a re-analysis of the deposited data

How the results depend on the processing

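All 9 gene pairs kept their direction with other lengths and pseudocounts, the authors' log2 values and each replicate left out, the alternatives run for them, and the counts of members and co-chaperones at 1 CPM stayed within 1.5 times. Members that varied numbered 28 to 46 when each replicate was left out (28 of 56 tested without replicate 1), against 52 of 63 with all 3, and 30 of 38 among members without overlap on the opposite strand. Co-chaperones that varied numbered 16 to 31, against 35. Lengths of the longest transcript gave family medians (log2 CPM per kb) of 10.26 for HSP90, 6.58 for HSP110, 7.65 for HSPD1 and HSPE1, 7.82 for CCT, 4.25 for DNAJA, 2.55 for DNAJB and 2.23 for DNAJC, and compartment medians of 4.50 for cytosol and nucleus, 2.38 for the ER and 4.73 for mitochondria. The authors' log2 values gave 10.09 for HSP90, 3.51 for HSPA, 7.17 for HSPD1 and HSPE1, 7.30 for CCT, 2.35 for DNAJB and 2.15 for DNAJC. Without overlapping members the medians were 11.05 for HSP90, 1.80 for HSPA and 3.90 for DNAJA, and means in place of medians gave 2.76 for HSPA, 3.84 for HSP110 and 6.24 for CCT. Totals without mitochondrial genes gave 6.95 for HSPD1 and HSPE1 and 4.15 for cytosol and nucleus, which had 4.11 without uncertain assignments and 3.81 to 4.00 with each replicate left out.

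Differences from replicate 1 (log2) with column totals were 0.75 for HSP90, 0.072 for HSPA, 0.25 for HSPD1 and HSPE1, 1.19 for DNAJA, 0.47 for DNAJC and 0.019 for all genes. Totals without mitochondrial genes gave 0.73, 0.056, 0.23, 1.18, 0.46 and 0.0038 in the same order. Without overlapping members they were 0.28 for HSP90, 0.053 for HSPA, 0.87 for DNAJA and 0.021 for DNAJC. HSPA had -0.10 with DESeq2 size factors and -0.14 centred on GC bins. With replicate 2 or 3 left out the ranges were 0.62 to 0.82 for HSP90, -0.120 to -0.118 for HSPA, 0.45 to 0.90 for HSP110, 0.42 to 1.02 for DNAJB, -0.034 to 0.14 for HSPD1 and HSPE1 and 0.16 to 0.29 for DNAJC. Direction was reversed for HSPA and for all genes under both totals, for HSPA without overlapping members, and for HSPD1 and HSPE1 without replicate 3; the cause was not tested. No paired analysis was possible because the libraries form 1 group. Depth limits low members most, since 1 count is worth up to 0.767 CPM.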

Other observations

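Processed pseudogenes of the most abundant chaperones held few reads. Of 11 such pseudogenes in the table, HSP90AB3P had the most, with 21, 37 and 14 counts in replicates 1, 2 and 3, followed by HSP90AA2P with 13, 15 and 7 and HSPD1P4 with 6, 6 and 13 counts. The HSP90AB1 gene itself had 27771, 13531 and 6919 counts.

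Members that come in by symbol only are given here. HSPB11, the intraflagellar transport subunit IFT25, had 38.2, 36.5 and 41.4 CPM in replicates 1, 2 and 3, and its libraries did not differ detectably (chi-square test with Benjamini-Hochberg adjustment over all genes, adjusted p = 0.816). HSPBP1, a nucleotide exchange factor of HSP70, had 51.8, 14.5 and 28.4 CPM with a GC content of 64.6%, and HSPBAP1 had 1.60, 11.3 and 6.90 CPM.

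DNAJC19 and DNAJC12 were 2 of the 5 DNAJC genes that varied and were highest in replicate 1. DNAJC19 had 59, 9 and 1 counts and DNAJC12, a partner of aromatic amino acid hydroxylases, had 35, 2 and 1 counts in replicates 1, 2 and 3.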
